A study of Mus musculus with 6 samples.

Results

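The 8 genes described here, Ung, Apex1, Apex2, Msh6, Pms2, Exo1, Polh and Rev1, encode proteins that act after uracil forms in antibody genes during somatic hypermutation. They were picked by name from a table of 19680 genes, all 8 were found once, and all 8 passed the filter on low values. RNA was sequenced from 6 libraries of germinal center (GC) B cells sorted from the spleens of C57BL/6 mice as B220+, CD38- and FAS+ cells. All mice were 6 to 8 weeks old, carried Senp1flox/flox alleles and had received 100 µg of the hapten-protein antigen NP-CGG into the abdominal cavity 14 days earlier. The 3 WT libraries came from Senp1flox/flox mice without Cre, and the 3 cKO libraries from Senp1flox/flox Cγ1-Cre mice, in which Cre is made by B cells that transcribe the Cγ1 heavy chain gene. Senp1 encodes a protease that takes the small modifier protein SUMO off other proteins, and the comparison asks which transcripts change when it is deleted in these cells.

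Hypermutation begins when cytosine in the DNA of an antibody variable region is deaminated to uracil, which leaves a U:G mismatch. In base excision repair, uracil DNA glycosylase removes the uracil and an apurinic endonuclease cuts the strand at the abasic site that is left. In mismatch repair, the MutS alpha complex binds the mismatch, the MutL alpha complex nicks the strand, and an exonuclease removes a stretch of it. In GC B cells both routes are filled in by error-prone translesion polymerases, which spread mutations to other bases, so these repair genes help to diversify antibodies rather than only to restore the sequence.

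None of the 8 genes passed the limma test between cKO and WT, as 0% of all 14678 genes tested did, and in none of the 8 were the WT and cKO libraries separate, against 11.6% of all genes. The largest fitted difference was that of Polh, the polymerase that puts most mutations at A:T pairs, with a cKO mean at 0.737 of WT by the fitted values, and the smallest was that of Apex2 at 1.01. What set the genes apart was their spread between libraries: Polh ranged 3.12-fold over the 6 libraries while Rev1, another translesion polymerase, ranged 1.16-fold. Values are normalized counts, that is reads per gene divided by a size factor for each library, listed for replicates 1, 2 and 3. Means are given ± SD with n = 3 libraries per group. The labels speak of paired WT and cKO mice but name no pairs, and they tie no library to a single mouse; the p-values therefore reflect only the spread among libraries, part of which may be technical.

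The libraries held 5160902 to 10339054 reads on genes in WT and 3019152 to 9657005 in cKO, of which 0.0579% to 0.0949% lay on the 8 genes. Replicate 1 of each group was the deepest of its group and stood apart on the first principal component (-54.4 and -49.1, against -10.1 to 56.2 for the others). Senp1 measured 915, 868 and 891 in WT and 373, 425 and 398 in cKO. Its log2 difference was -1.16 with a limma adjusted p of 0.111, so the main test did not call the deleted gene either. In the authors' deposited DESeq2 results its adjusted p was 2.38e-09. A gene that did not pass the limma test can therefore still differ. Defining B cell genes were present in every library, with Cd79a at 5134 to 6774 and Cd79b at 5377 to 6705, as were the GC genes Bcl6 (1289 to 2225) and S1pr2 (1245 to 2504), while Mef2b, also on the GC list, was at 0 to 5.69. The summed level of 9 T cell markers was 1621 in cKO replicate 2 and 537 to 768 in the others, and that of 8 naive or memory B cell markers was 6550 there and 1496 to 3862 elsewhere. Outside cKO replicate 2 most of the T cell sum was Lck, at 470 to 691 over all 6 libraries. All 9 T cell markers were highest in cKO replicate 2, and Cd3e was 140 there and 5.98 to 27.1 elsewhere. Macrophage markers (8 genes) summed to 115 to 526. No gene of these lists was at 0 in all libraries, but Cd3d, Cd3g, Cd8a, C1qb and C1qc were at 0 in cKO replicate 3 and C1qc also in WT replicate 3. The parts that these cells and the depth have in the results below were not tested, and in sorted cells a lower level can mean fewer cells of a type or less RNA per cell, which cannot be told apart.

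Of the genes, 3 start back to back with a neighbour that is read in the other direction, so that a single short stretch lies between the starts of 2 genes. These stretches are shown because the neighbour's level can be set beside the repair gene's level in the same libraries. They run 5′ to 3′ on the strand of the repair gene, between the outermost starts in GENCODE M21, and the sequence is from RefSeq's GRCm38.p6 promoter table, which held 6 of the 8 genes and lacked Exo1 and Apex2. Capitals mark exact matches, on either strand, to the palindromic motif of NRF1, to CCAAT (NF-Y) or to CACGTG (E-box).
Polh to Xpo5, chr17:46202646-46202781, minus strand: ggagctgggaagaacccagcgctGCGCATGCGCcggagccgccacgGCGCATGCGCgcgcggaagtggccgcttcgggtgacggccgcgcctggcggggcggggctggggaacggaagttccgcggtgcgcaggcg
Apex1 to Osgep, chr14:50924894-50924967, plus strand: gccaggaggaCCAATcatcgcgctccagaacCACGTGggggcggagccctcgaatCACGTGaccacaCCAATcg
Pms2 to Aimp2, chr5:143909848-143909963, plus strand: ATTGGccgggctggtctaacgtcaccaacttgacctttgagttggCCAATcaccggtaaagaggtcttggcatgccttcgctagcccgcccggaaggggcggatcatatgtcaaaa

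The stretch upstream of Polh held the NRF1 motif 2 times, at positions 24 and 47 counted from its 5′ end, and 0.971% of all 32851 RefSeq promoter windows of 300 bases hold it. The Apex1 stretch held CCAAT 2 times and CACGTG 2 times, motifs found in 37.4% and 7.15% of windows. The Pms2 stretch held CCAAT once on each strand. Of the remaining windows, that of Rev1 held CACGTG and that of Msh6 held CCAAT and TTTCCCGC, an E2F motif found in 1.07% of windows. The other motifs searched were TTTGGCGC, TTTCGCGC and TTTGCCGC (E2F) and CCGGAAGT (ETS), and no window of the 6 genes held them. A match is a string of letters and was not tested for binding.

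**Figure D1:**
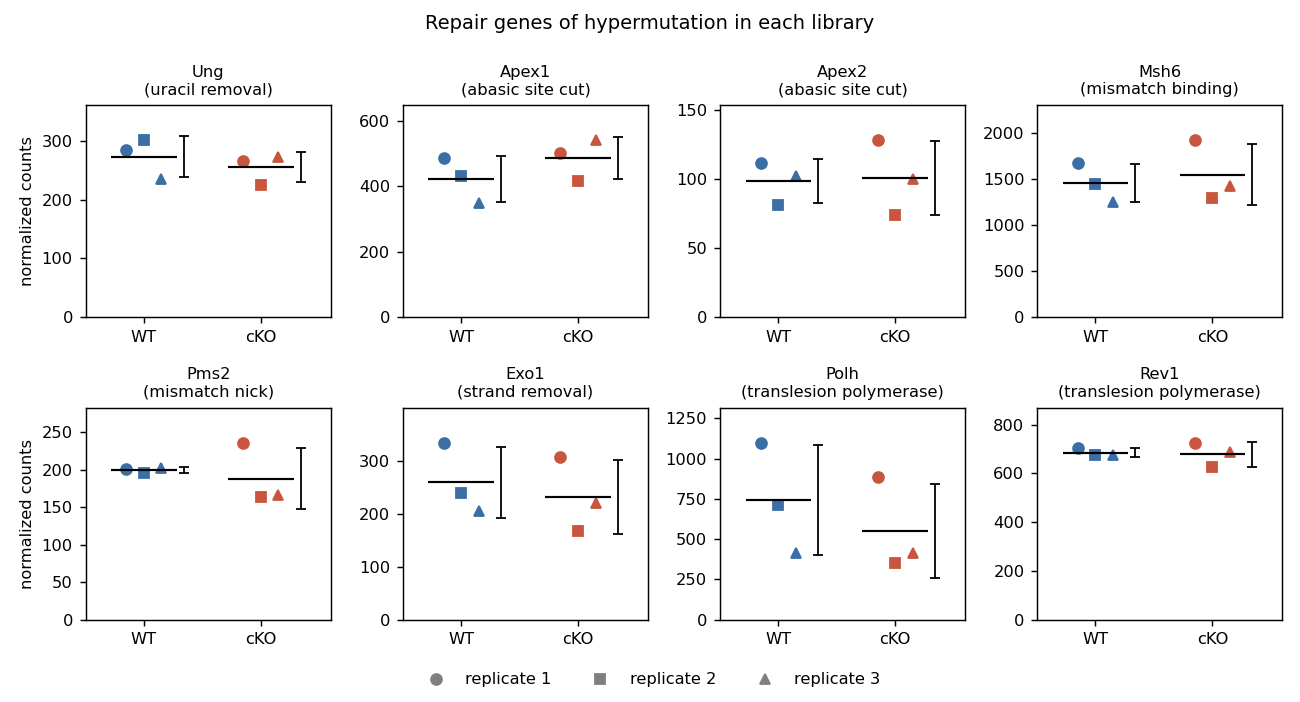
Normalized counts of the 8 repair genes in each library (vertical axes from 0), with WT in blue, cKO in red, symbols for replicate number, a line at the group mean and a bar of ± 1 SD (n = 3 libraries per group). The groups overlap in all 8 panels, Polh has the widest spread (351 to 1096) and Rev1 the narrowest relative to its level (624 to 725).

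Base excision starts with Ung, the uracil DNA glycosylase (ENSMUSG00000029591, chromosome 5, 114130386 to 114139323, 7 merged exons, GRCm38). Ung measured 285, 301 and 235 in WT and 266, 226 and 274 in cKO. Of the cKO libraries 1 lay below all of WT, and the highest and lowest libraries, WT replicate 2 and cKO replicate 2, differed 1.33-fold. The group means were 274 ± 34.5 and 255 ± 25.7, with a fitted log2 difference (cKO minus WT) of -0.10 ± 0.16 (SE) and a limma adjusted p of 0.967 over 14678 genes. The 95% confidence interval ran from -0.47 to 0.27, which excludes a fall of Ung by more than 27.6% and a rise by more than 20.8%. Intervals here and below are for single genes in the main fit and its normalization, without adjustment over genes, and other settings move them. The difference was -0.10 within replicate 1, with 1 library per group, and -0.10 within replicates 2 and 3. The latter averages opposite directions: cKO was lower in replicate 2 (226 against 301) and higher in replicate 3 (274 against 235).

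Apex1, the main endonuclease for abasic sites (ENSMUSG00000035960, chromosome 14, 50924968 to 50927139), measured 486, 433 and 349 in WT and 503, 416 and 541 in cKO. It was the repair gene with the highest positive difference, and its lowest library was WT replicate 3 and its highest cKO replicate 3. The means were 423 ± 69.0 and 487 ± 64.4, the log2 difference 0.21 ± 0.17 (SE) and the limma adjusted p 0.930. Its interval, -0.18 to 0.60, excludes a fall by more than 11.9% and leaves room for a rise by up to 51.2%. The difference was 0.05 within replicate 1 and 0.29 within replicates 2 and 3. Of the merged exon bases of Apex1, 61.7% overlap those of Tmem55b (also named Pip4p1) on the other strand, and the sources used here do not name the strand setting of the counting, so reads from that part cannot be assigned to either gene with certainty. Tmem55b measured 240, 219 and 280 in WT and 290, 273 and 288.0 in cKO, a log2 difference of 0.21 (limma adjusted p = 0.928).

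Apex2 encodes a relative of Apex1 with weaker cutting of abasic sites and an exonuclease activity (ENSMUSG00000025269, chromosome X, 150519519 to 150589868). It had the lowest counts of the 8 genes, 112, 80.9 and 103 in WT and 128, 74.0 and 100.1 in cKO. Only 39 to 236 reads per library lay behind these values, a counting error of 6.51% to 16.0%, against a coefficient of variation of 19.9% over the 6 libraries. The log2 difference was 0.01 ± 0.25 (SE), with a limma adjusted p of 0.996 and an interval from -0.57 to 0.59, so neither a rise of 50.4% nor a fall of 32.5% is excluded. Its sign turned in 8 of 22 alternatives, and without single libraries it ranged from -0.18 (without cKO replicate 1) to 0.21 (without cKO replicate 2), so no direction is given for Apex2. All 6 libraries carried transcripts of the Y chromosome (Ddx3y at 414 to 769) and Xist was at 0 to 2.04, with no library of another pattern.

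On the mismatch route, Msh6, the subunit of MutS alpha that reads the mismatch (ENSMUSG00000005370, chromosome 17, 87975062 to 87990892), was the most abundant of the 8. It measured 1666, 1443 and 1252 in WT and 1916, 1294 and 1424 in cKO. Replicate 1 was the highest library of each group and the other 4 libraries lay between 1252 and 1443. The log2 difference was 0.08 ± 0.18 (SE), with a limma adjusted p of 0.974 and an interval from -0.33 to 0.49, which excludes a fall by more than 20.6%. The sign of Msh6 turned in 4 of 22 alternatives: without cKO replicate 1 (-0.09), without WT replicate 3 (-0.03), and with library totals, alone (-0.0024) or without immunoglobulin genes (-0.0015).

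Pms2, the nicking subunit of MutL alpha (ENSMUSG00000079109, chromosome 5, 143909964 to 143933968), measured 201, 195 and 202 in WT and 235, 163 and 165 in cKO. The WT libraries were nearly level (199.5 ± 4.10), whereas cKO replicate 1 lay above and cKO replicates 2 and 3 below every WT library (188 ± 41.0). The log2 difference was -0.11 ± 0.19 (SE), with a limma adjusted p of 0.967. It was 0.23 within replicate 1 and -0.27 within replicates 2 and 3, so the sign differed between these sets. The counting error of single libraries was 4.80% to 11.1%, against a coefficient of variation of 21.8% in cKO and 2.06% in WT.

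Exo1, the exonuclease that opens the gap (ENSMUSG00000039748, chromosome 1, 175880581 to 175913489), measured 333, 238 and 205 in WT and 306, 167 and 221 in cKO. Replicate 1 of both groups lay above all other libraries, and cKO replicate 2 was the lowest. The means were 259 ± 66.4 and 231 ± 70.0, with a log2 difference of -0.18 ± 0.26 (SE), a limma adjusted p of 0.960 and an interval from -0.77 to 0.42. The spread within each group, a coefficient of variation of 25.7% in WT and 30.3% in cKO, was larger than the difference between them. Without WT replicate 1 the log2 difference turned to 0.020 and without cKO replicate 2 to 0.035.

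The error-prone step is carried by Polh and Rev1. Polh, DNA polymerase eta (ENSMUSG00000023953, chromosome 17, 46171355 to 46202645), measured 1096, 712 and 417 in WT and 888, 351 and 417 in cKO. The WT libraries alone covered nearly the whole range, and replicate 3 had almost the same value in both groups. The means were 742 ± 341 and 552 ± 293, with a log2 difference of -0.44 ± 0.41 (SE), a limma adjusted p of 0.933 and an interval from -1.37 to 0.49, so a fall by up to 61.4% and a rise by up to 40.7% are within it. The difference was -0.30 within replicate 1 and -0.51 within replicates 2 and 3. With a term for replicate 1 in the limma model the interval of Polh was -0.87 to -0.01 and its adjusted p 0.536; Polh alone of the 8 had an unadjusted p under 0.05 there, as did 9.16% of all genes. Its size depended on single libraries: the log2 difference was -0.11 without WT replicate 1, -0.80 without WT replicate 3, -0.85 without cKO replicate 1 and -0.18 without cKO replicate 2.

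Rev1, which inserts cytosine opposite abasic sites and recruits other translesion polymerases (ENSMUSG00000026082, chromosome 1, 38052786 to 38129801, 25 merged exons), was the steadiest. It measured 706, 674 and 676 in WT and 725, 624 and 686 in cKO. Its means of 685 ± 18.2 and 679 ± 50.7 gave a log2 difference of -0.02 ± 0.12 (SE) and a limma adjusted p of 0.993. The interval of -0.30 to 0.26 excludes a fall by more than 18.5% and a rise by more than 19.9%, and it was the narrowest interval of the 8 genes. The sign of Rev1 turned in 4 of 22 alternatives (0.0053 to 0.042). The coefficient of variation over the 6 libraries was 5.03%, of the size of the counting error of single libraries (2.68% to 5.51%). Among 7030 genes whose mean reached 100, 1.71% had a smaller standard deviation of log2 values than Rev1 and 96.1% a smaller one than Polh. Of the merged exon bases of Rev1, 26.6% overlap Eif5b on the other strand, so part of its reads cannot be assigned with certainty, while Eif5b itself ranged from 1271 to 3346.

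**Figure D2:**
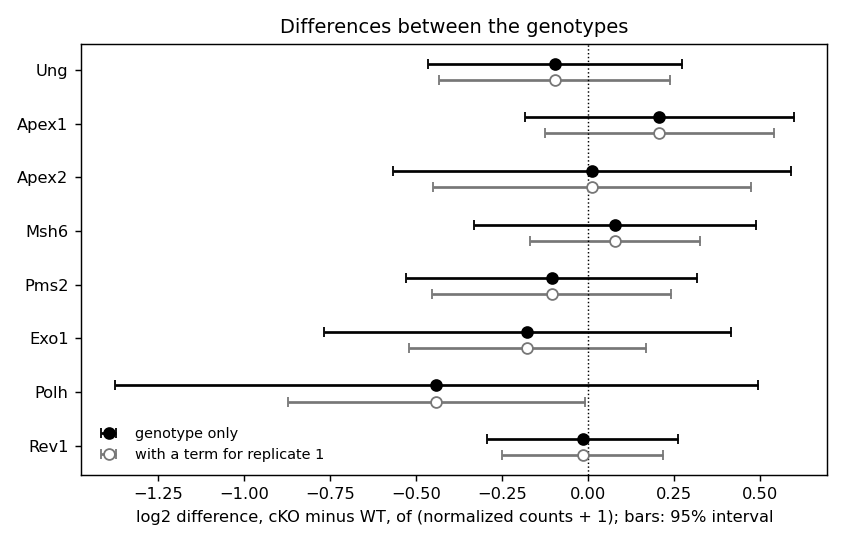
Log2 difference of (normalized counts + 1) between cKO and WT for each gene with its 95% confidence interval, for the model with genotype only (filled) and with a term for replicate 1 (open). All 8 intervals include 0 with genotype only, and that of Polh narrows to -0.87 to -0.01 with the term.

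As a group, 0 of the 8 genes were called by limma at an adjusted p under 0.05, where 0% of all 14678 genes tested were called (background of the same rule), and 0 reached an unadjusted p under 0.05, where 5.15% of all genes did (2.98% higher and 2.17% lower in cKO). EdgeR and DESeq2 on recovered reads also called 0 of the 8, where DESeq2 called 0.147% of the genes to which it gave an adjusted p. With genotype alone none of the 8 had an unadjusted p under 0.05 in edgeR (5.66% of all genes) or DESeq2 (2.84%). With a term for replicate 1, DESeq2 gave Polh an unadjusted p of 0.0311 and an adjusted p of 0.495, where 958 genes had an unadjusted p under 0.05. The groups did not overlap in 0 of the 8, against 11.6% of all genes (6.28% higher and 5.28% lower in cKO). Differences were negative for 5 of the 8, against 50.2% of all genes and 56.7% of those whose mean reached 100. The median was -0.06, against -0.0019 over all genes and -0.035 over those whose mean reached 100. Within replicate 1, 3 of the 8 were lower in cKO (49.7% of all genes), and within replicates 2 and 3, 6 of the 8 (49.6%). In the authors' deposited table the adjusted p was 0.9996 for each of the 8, with log2 fold changes from -0.42 (Polh) to 0.20 (Apex1).

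The order of libraries was partly shared between the genes. In 5 of the 8 genes (Msh6, Apex2, Exo1, Polh and Rev1) replicate 1 of both groups lay above all other libraries, against 16.2% of all genes and 22.6% of those whose mean reached 100. In 6 of the 8 (all but Apex1 and Msh6) cKO replicate 2 was the lowest library, against 20.3% and 23.9%. Exo1 ranked the libraries, from high to low, in the order WT 1, cKO 1, WT 2, cKO 3, WT 3 and cKO 2, and the median of 22 genes of G2 phase and mitosis had the same order (0.71, 0.46, 0.29, -0.20, -0.36 and -0.90 as log2 deviations from the mean of the libraries). Deviations of Polh in that order of libraries were 0.89, 0.59, 0.27, -0.50, -0.50 and -0.75, and those of Exo1 were 0.48, 0.36, 0.00, -0.11, -0.22 and -0.51. For 33 S phase genes the medians were 0.34, 0.22, 0.24, -0.17, -0.17 and -0.46. Between genotypes, 31 of the 33 S phase genes (median -0.27) and 22 of the 22 G2/M genes (median -0.45) had negative differences. The share was 50.2% over all genes and 56.7% over those whose mean reached 100, and limma called 0 in each list. In the same comparison 8 of 8 naive or memory B cell markers (median 0.76) and 8 of 8 macrophage markers (median 0.83) had positive differences, 8 of 9 GC B cell markers had negative ones (median -0.31), and limma called 0 of these as well; their part in the values of the cycle lists and the repair genes was not tested. The share of reads on mitochondrial genes was 2.71% and 3.66% in replicate 1 of WT and cKO, 7.92% in WT replicate 2 and 9.83% to 19.1% in the other libraries, and the part of these values in the levels of Polh and Exo1 was not tested.

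**Figure D3:**
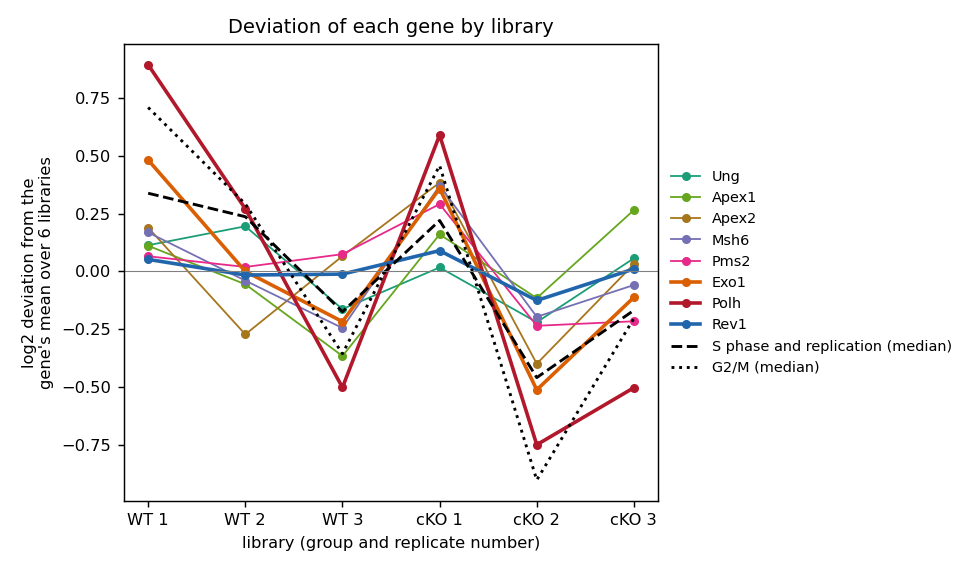
Log2 deviation of each gene from its own mean over the 6 libraries, with the medians of the S phase (dashed) and G2/M (dotted) lists; lines join the values of a gene and imply no order of libraries. Polh runs from 0.89 in WT replicate 1 to -0.75 in cKO replicate 2, the highest and lowest libraries of both cell cycle medians, while Rev1 stays within -0.13 and 0.09.

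The genes were also compared with each other within libraries, as the ratio of normalized counts for each of the 28 pairs, in which size factors cancel. The groups did not overlap for 2 pairs. Ung over Apex1 stood at 0.585, 0.695 and 0.672 in WT and 0.529, 0.543 and 0.506 in cKO, so there was less Ung per Apex1 in every cKO library. Msh6 over Exo1 stood at 5.002, 6.05 and 6.10 in WT and 6.27, 7.75 and 6.45 in cKO. Each had an exact two-sided permutation p of 0.1, the smallest that 3 against 3 libraries can give, and 0.8 after adjustment over the 28 pairs. A share of 0.1 of all label orders separates the groups of a given pair, so 2 of 28 is not read as a result. The share over other pairs of genes was not computed. Polh over Rev1 ranged 2.76-fold, from 0.562 in cKO replicate 2 to 1.55 in WT replicate 1, and its groups overlapped.

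Levels between genes can be compared only per length, here as normalized counts per kilobase of merged exons. These lengths include bases that overlap a gene on the other strand, 61.7% for Apex1 and 26.6% for Rev1. The places of Apex1 and Rev1 in the order are therefore less certain. Msh6 was highest in WT (334 ± 47.8), followed by Apex1 (297 ± 48.5), Polh (125 ± 57.3), Rev1 (111 ± 2.94), Ung (50.04 ± 6.31), Exo1 (30.7 ± 7.89), Pms2 (24.6 ± 0.505) and Apex2 (11.3 ± 1.81). Neighbours in this order overlapped over the 6 libraries for Msh6 and Apex1, for Polh and Rev1, and for Exo1 and Pms2. The 4 remaining steps did not: Apex1 (at least 246) lay above Polh (at most 184), Rev1 (at least 101) above Ung (at most 55.1), Ung (at least 41.3) above Exo1 (at most 39.6), and Pms2 (at least 20.1) above Apex2 (at most 14.6). With the shorter exons of GENCODE's basic set, Apex1 (at least 282) and Polh (at most 339) overlapped too, and the WT mean of Pms2 (36.4) was above that of Exo1 (33.2). Per length, Apex1 stood above its relative Apex2, 297 ± 48.5 against 11.3 ± 1.81 in WT and 342 ± 45.3 against 11.5 ± 3.09 in cKO. In the basic set the WT means were 341 ± 55.7 and 12.6 ± 2.03. The size of this gap is uncertain, since Apex1 may include reads of Tmem55b and the Apex2 value depends on a merged exon length of 8.74 kilobases.

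**Figure D4:**
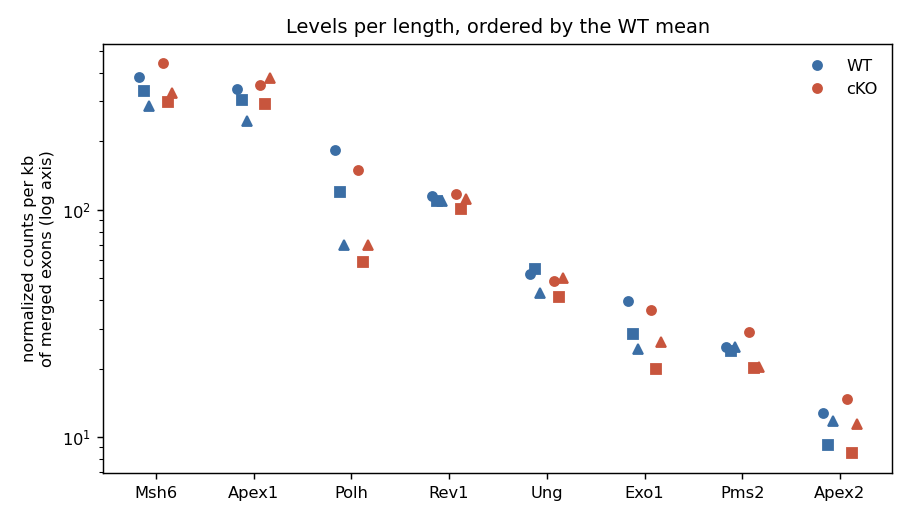
Normalized counts per kilobase of merged exons on a log axis, for WT (blue) and cKO (red), 1 symbol per library (circle, square and triangle for replicates 1, 2 and 3), genes ordered by their WT mean. Msh6 and Apex1 (246 to 441) lie above the other genes and Apex2 (8.47 to 14.6) below them.

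The genes on the far side of the 3 printed stretches were measured in the same libraries. Xpo5, which exports small RNAs from the nucleus, starts 137 bases from Polh and measured 226, 200.1 and 228 in WT and 216, 207 and 231 in cKO, while Polh ranged from 351 to 1096 in the same libraries. Osgep, a tRNA-modifying enzyme that starts 75 bases from Apex1, measured 249.2, 239.5 and 232 in WT and 307, 211 and 231 in cKO, and it was lower in cKO replicate 3 (231) than in cKO replicate 1, unlike Apex1. Aimp2, a scaffold of tRNA synthetases that starts 117 bases from Pms2, measured 177, 161 and 111 in WT and 192, 140 and 155 in cKO. None of the 3 neighbours passed the test (limma adjusted p of 0.999 for Xpo5, 0.988 for Osgep and 0.967 for Aimp2).

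**Figure D5:**
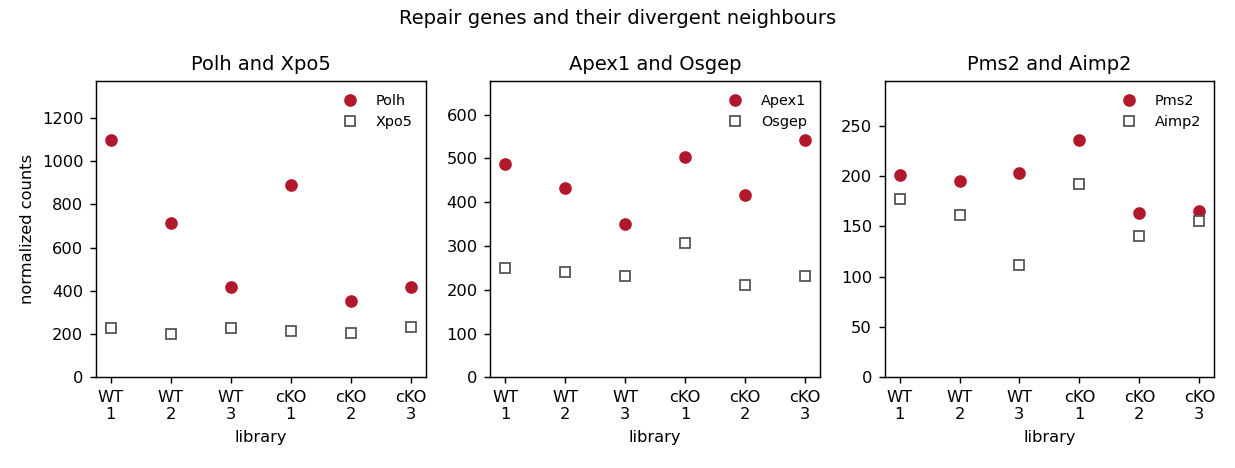
Normalized counts in each library of Polh, Apex1 and Pms2 (filled circles) and of the gene that starts back to back with each (open squares), vertical axes from 0. Xpo5 stays between 200.1 and 231 while Polh covers 351 to 1096.

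Other genes of the 3 routes came from lists. Of 19 further base excision genes 18 were tested and 0 passed, with 8 higher and 10 lower by sign, a median of -0.01 and 0 with groups that did not overlap. Mbd4, a glycosylase for uracil and thymine opposite guanine, measured 1184, 815 and 719 in WT and 1069, 543 and 568 in cKO, and Parp2, which binds DNA breaks, 324, 300.2 and 305 in WT and 374, 299.9 and 347 in cKO. The scaffold Xrcc1 (1449 ± 236 and 1499 ± 305) and the gap-filling polymerase Polb (158 ± 5.23 and 157 ± 14.9) had nearly equal means.

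Of 19 further mismatch repair genes 0 passed. Differences were negative for 17, against 50.2% of all genes and 56.7% of those whose mean reached 100, and the median was -0.15. Most of this list also serves general DNA replication: Pcna, Lig1 and the Rfc, Rpa and Pold genes. Among the 33 S phase genes 31 had negative differences as well, so the signs are not particular to mismatch repair. The clamp loader Rfc1 measured 2748, 2641 and 2296 in WT and 2477, 1687 and 1824 in cKO (log2 difference -0.38, limma adjusted p = 0.915). The sliding clamp Pcna measured 2862, 3192 and 2445 in WT and 2730, 1947 and 2416 in cKO (-0.27, limma adjusted p = 0.928). Msh3, a relative of Msh6 that acts on larger loops, was below every WT library in all 3 cKO libraries (628, 696 and 598, then 590.0, 484 and 547). It was the 1 gene of this list (5.26%) whose groups did not overlap, against 11.6% of all genes in either direction. With cKO below WT the share of all genes was 5.28%, so this is not read as a result.

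Of 13 further translesion genes 0 passed over all genes, and the median was -0.20. Differences were negative for 12, against 50.2% of all genes and 56.7% of those whose mean reached 100. In limma 3 had a negative difference at an unadjusted p under 0.05, against 2.17% of all genes. These were Polq, DNA polymerase theta (324, 323 and 278 in WT, 253, 175 and 219 in cKO), Rev3l, the catalytic subunit of polymerase zeta (911, 1083 and 1150 in WT, 700.1, 939.5 and 697 in cKO), and Usp1, which takes ubiquitin off the clamp (1207, 1571 and 1316 in WT, 1061, 1091 and 1044 in cKO). Their log2 differences were -0.53 for Polq, -0.44 for Rev3l and -0.35 for Usp1, each with a limma adjusted p of 0.915. In 4 of the 13 (30.8%) no cKO library reached the WT range, where cKO lay below WT in 5.28% of all genes: Polq, Usp1, and, chosen after their values were seen, Poli (153, 156 and 150 in WT, 143, 142 and 135 in cKO) and Polk (57.6, 60.7 and 58.1 in WT, 41.8, 47.4 and 57.2 in cKO). For Polk this rests on 57.2 in cKO replicate 3 against 57.6 in WT replicate 1, less than 1 read, which equals 2.04 in cKO replicate 3. The unadjusted limma p was 0.433 for Poli and 0.283 for Polk. Mad2l2, the subunit of polymerase zeta that binds Rev1, had a positive difference (104 ± 15.2 and 111 ± 28.6). Rev1 itself (-0.02) lay above all but Mad2l2 of these 13 differences, and whether it differs from them was not tested.

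Among the 5 genes whose pattern over the 6 libraries was most like the median profile of the 8 were Dmap1, Naa40, Rpl7l1 and Lamtor1, out of 6754 genes ranked: those whose mean reached 100, without the 8 themselves, pseudogenes, antigen receptor segments and genes with only a provisional name. Their likeness, as Pearson's r over 6 libraries that share the replicate 1 split, was 0.989 to 0.992 and serves only to rank them. Naa40, an acetyltransferase of histones, measured 1442, 1225 and 1076 in WT and 1563, 1034 and 1195 in cKO.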

How the data were processed

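RNA sequencing of 6 libraries was analysed from 1 deposited table. Per the submitters' processing notes, TopHat2, HISAT2, HISAT, SAMtools, HTSeq and DESeq2 were used with the mm10 genome; the sources used here name no versions, roles, annotation or strand setting. The authors deposited a normalized signal per gene and library (counts divided by a size factor), its mean, and their log2 fold change with SE, test score (Wald statistic), p-value and adjusted p-value. All values (100%, tolerance 0.01 read) were whole multiples of the smallest in each column, so reads were recovered. The main test (limma 3.58.1, trended variance, R 4.3.3) used log2(value + 1) over 14678 genes of mean 1 or more, genotype alone and Benjamini-Hochberg adjustment. Fold changes on this scale understate changes of low genes. EdgeR 4.0.16 called 0 genes on the recovered reads and DESeq2 1.42.0 called 20. The test scripts were tried on simulated data. Exon lengths and overlaps come from GENCODE M21 (GRCm38), which held 19563 of the identifiers.

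The genes, lists and tests were chosen with earlier results of these data known. Named genes are the 8, Senp1, the 4 of smallest p per list that bear on the 8, partners in complexes, the 5 most alike, and neighbours with overlapping exons or starts within 1 kilobase (1000 bases). Overlaps of under 5% of exon bases are not described. A few genes are not reported here. The labels speak of paired WT and cKO mice without saying that a replicate number marks a pair. Whether the numbers pair the libraries was checked from deviations from the group means. A correlation above 0.1 was required in every pair, which replicate 2 did not reach (0.054), so the main test has no block and the blocked fit is an alternative.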

Additional observations from a re-analysis of the deposited data

How the results depend on the processing

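Over 22 alternatives and 176 fits of the 8 genes, 0 fits passed an adjusted p under 0.05 (lowest 0.495, for Polh). Ung, Pms2 and Polh stayed negative and Apex1 positive in all 22. Some of the 22 could not turn a sign. Other filters on low values, the limma replicate block and the limma term for replicate 1 leave every log2 difference of the 8 genes as it was. Without single libraries the log2 differences ranged from -0.20 to -0.011 for Ung, -0.28 to -0.015 for Pms2, -0.85 to -0.11 for Polh, 0.076 to 0.32 for Apex1, -0.40 to 0.035 for Exo1, -0.18 to 0.21 for Apex2, -0.089 to 0.19 for Msh6 and -0.066 to 0.042 for Rev1. Differences near 0 turned. Quantile normalization gave -0.040 for Apex2 and 0.032 for Rev1, library totals alone -0.068 for Apex2 and -0.0024 for Msh6, totals without immunoglobulin genes -0.067 and -0.0015, TMM -0.0038 for Apex2, and replicates 2 and 3 alone -0.081 for Apex2. Leaving out a library turned Exo1 (0.020 without WT replicate 1, 0.035 without cKO replicate 2), Rev1 (0.0053 and 0.042), Apex2 (-0.12 without WT replicate 2, -0.18 without cKO replicate 1, -0.0020 without cKO replicate 3) and Msh6 (-0.026 without WT replicate 3, -0.089 without cKO replicate 1). Of the 8, 5 had negative differences, and 3 (without WT replicate 1 or cKO replicate 2) to 7 (without cKO replicate 1) when a library was left out. Groups did not overlap for 2 genes (Pms2 and Polh) in replicates 2 and 3 alone or without cKO replicate 1, against 38.3% and 27.1% of all genes, and for 1 without cKO replicate 2 (Apex1, 21.9%) or WT replicate 3 (Ung, 20.2%).

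Over all genes limma called 0 and 756 reached an unadjusted p under 0.05. A term for replicate 1 gave 3 and 1345, that term without cKO replicate 2 (chosen after seeing the data) 16 and 1586 (with Rev1 at 0.030), DESeq2 20 called and DESeq2 with the term 79. Single libraries left out gave 345 to 1363 at an unadjusted p under 0.05 and 0 called. Without cKO replicate 1, which gave the 1363, Polh had an unadjusted limma p of 0.0432. The replicate block gave 1 call and 1333, with Polh at an unadjusted p of 0.0450 and none of the 8 called. Same-numbered libraries correlated at 0.69, 0.054 and 0.31 in their deviations, and WT replicates 2 and 3 each correlated best with another number (0.15 and 0.36), so the numbers were not taken as pairs, although the labels speak of paired mice. The causes of these shifts were not tested. Depth limits Apex2 most, at 39 reads in cKO replicate 2.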
